A study of Homo sapiens with 12 samples.

Results

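The genes described here are 10 genes of the Nodal pathway: the ligand gene NODAL, the secreted inhibitor genes LEFTY1, LEFTY2 and CER1, the co-receptor gene TDGF1, the receptor genes ACVR1B, ACVR2A and ACVR2B, the nuclear partner gene FOXH1 and the repressor gene SKIL. They were chosen by name, with earlier results of these data known. Their peaks were the rows of the SOX2 and SOX17 peak lists that carry 1 of these names as the nearest gene. These were 10 of 17795 SOX2 peaks and 5 of 17507 SOX17 peaks. The 10 genes stand among 29978 genes with a RefSeq transcript, of which 19442 are protein-coding. Both lists come from chromatin immunoprecipitation and sequencing (ChIP-seq) in established human lines derived from germ cell tumours. The embryonal carcinoma-like line 2102EP was used for SOX2 and the seminoma-like line TCam-2 for SOX17, with 3 biological replicates of each. Libraries of 2% input, 3 per line, served as controls, so 12 libraries formed 4 groups. No treatment or genetic change is given for either line. Antibody and line changed together, so a difference between the lists cannot be told apart into factor and cell line.

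The values are the authors' merged peaks, 1 list per factor, with a score for each peak and no value for a single library. Read totals are not in the lists, so depth is unknown, no value carries a replicate error, and no test was made. The 2 lists may not score peaks on 1 scale. A score was therefore set against its own list, as its percentile (the share of the list's peaks with a score up to its own) or as a multiple of the list's median. Peak lists hold no expression values, so the cell types stand as the labels give them. No peak of the 10 genes lay on the short arm of chromosome 12 or on chromosome 20, where scores ran higher than elsewhere. The median score on the short arm of chromosome 12 was 47.4 against 23.8 outside it for SOX2, and 40.7 against 26.3 for SOX17. For chromosome 20 the medians were 27.0 on it and 24.0 off it in the SOX2 list, and 36.3 on it and 26.3 off it in the SOX17 list.

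Nodal is a secreted ligand of the TGF-beta family that signals through type I and type II activin receptors and needs a co-receptor of the Cripto family. The receptors activate SMAD2 and SMAD3, which enter the nucleus with SMAD4 and reach many targets with FOXH1, a forkhead factor that binds DNA. NODAL and the LEFTY genes are themselves targets in the mouse, and LEFTY proteins block the ligand, so that the pathway limits itself. In pluripotent human cells it supports self-renewal, and its genes are active in embryonal carcinoma.

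The SOX2 list held peaks at the LEFTY genes that stood out by sequence. LEFTY1 had SOX2 peaks 1268 bp and 10390 bp upstream of its transcription start site (TSS), and LEFTY2 had 1 SOX2 peak 4363 bp upstream. The 3 peaks were copies of 1 short sequence. Each held a FOXH1 site, then 12 bases, then a SOX site in the opposite direction, and further on another SOX site. Searched for after it had been seen in these copies, this order was found in no other peak of the SOX2 list. The LEFTY2 copy is shown to make the order visible. It is the SOX2 peak at chr1:225945784-225945927 of hg38, on the plus strand, which puts the FOXH1 site first. Capitals mark the FOXH1 site (TGTGGATT) and the SOX sites (CTTTGT, or ACAATG as the reverse complement of CATTGT).
LEFTY2, 4363 bp upstream: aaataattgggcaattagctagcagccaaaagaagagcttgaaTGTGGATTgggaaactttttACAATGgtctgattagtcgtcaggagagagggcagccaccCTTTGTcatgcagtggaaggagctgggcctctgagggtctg

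Within 100 bp of the peak centres, the LEFTY1 copies were 86.7% identical over 105 aligned positions. The copy nearer to LEFTY1 matched the LEFTY2 copy at 84.6% of 91 positions. The distant LEFTY1 copy matched the LEFTY2 copy at 82.5% of 154 positions. The aligned stretches through the peaks ended close to them: in windows of 6001 bp they were 105, 95 and 185 bp long. Alignments elsewhere in these windows were not examined. A search of hg38 with each peak by blastn (E-value up to 1e-05, main chromosomes) found the other 2 copies and no further alignment. Within 100 bp of the centres, the longest identical run between any pair was 29 bp, shorter than the 75 bp reads. How reads were placed among the copies was not tested. The SOX site in the middle lay 12 bases after the FOXH1 site in all 3 copies, and the second SOX site 36 bases further on in both LEFTY1 copies and 34 in the LEFTY2 copy. A further FOXH1 site lay 90 bp from the centre of the distant LEFTY1 peak, outside its bounds. In LEFTY1 both copies lie upstream of the RefSeq gene and in an intron of a longer LEFTY1 transcript of GENCODE 44, while the LEFTY2 copy is intergenic.

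The copies differed in score. The distant LEFTY1 peak scored 220.17 in the SOX2 list, 9.15 times the list median, at percentile 98.7 and rank 224. The LEFTY2 peak scored 156.87, 6.52 times the median, at rank 510. The LEFTY1 peak 1268 bp upstream scored 38.37, 1.59 times the median, at percentile 70.8. In the SOX17 list 1 of the 3 copies had a peak, the distant LEFTY1 one. It was centred 10353 bp upstream, 37 bp from the SOX2 centre, and scored 33.67, 1.26 times its list's median, at percentile 62.9. That region was thus near the top of the SOX2 list and in the middle of the SOX17 list, with 78 bp in common. The nearest SOX17 peak to the LEFTY2 copy was 36891 bp away. A copy missing from a merged list is not thereby shown to be unbound. Between the RefSeq genes, 19.8 kb from the LEFTY1 TSS used above, both lists had a further shared peak, assigned to MIR6741. Its percentiles were 31.8 for SOX2 and 62.9 for SOX17. When every LEFTY1 TSS of GENCODE was counted, the SOX17 peak there lay 2.42 kb from one of them. By that measure it was the SOX17 peak nearest to LEFTY1.

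**Figure D1:**
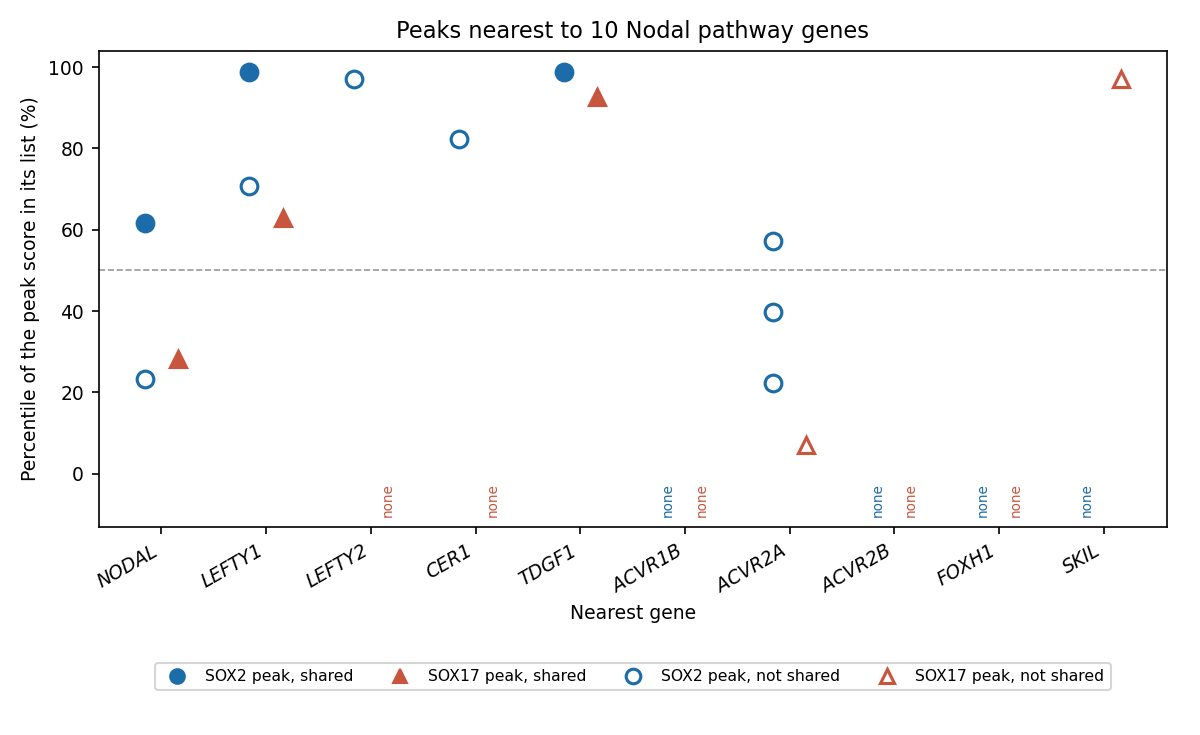
Score percentile (%) of every peak nearest to the 10 genes within its own list; circles are SOX2 peaks in 2102EP, triangles SOX17 peaks in TCam-2, filled symbols peaks that overlap between the lists, and the dashed line the list median. LEFTY1, LEFTY2 and TDGF1 have SOX2 peaks above percentile 97, TDGF1 and SKIL have SOX17 peaks above 92, and 3 genes have a peak in neither list.

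Of the 10 genes, 6 were nearest to a SOX2 peak and 5 to a SOX17 peak. Over all genes these shares were 31.1% and 32.5%, and over protein-coding genes 32.5% and 34.5%. As the 10 genes were chosen with earlier results of these data known, these and the following comparisons are descriptions. NODAL, LEFTY1, TDGF1 and ACVR2A had peaks in both lists, where 21.6% of protein-coding genes did. LEFTY2 and CER1 were in the SOX2 list alone, SKIL was in the SOX17 list alone, and ACVR1B, ACVR2B and FOXH1 were in neither. The peaks overlapped between the lists at LEFTY1, NODAL and TDGF1. These were 3 of the 10 genes, against 12.4% of protein-coding genes. They were 3 of 10 SOX2 peaks and 3 of 5 SOX17 peaks, against 24.9% of all SOX2 and 25.3% of all SOX17 peaks.

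Most of the peaks, other than those of ACVR2A, lay close to the genes. Of the SOX2 peaks 7 of 10 were within 15 kb of the TSS, against 27.0% of the whole list, and of the SOX17 peaks 4 of 5, against 28.8%. Promoter peaks by the authors' annotation belonged to 3 of the 10 genes for SOX2 (NODAL, CER1 and TDGF1) and to 2 for SOX17 (NODAL and TDGF1). Among protein-coding genes 1.77% had a SOX2 and 2.39% a SOX17 promoter peak. Scores ran from percentile 22.4 to 98.75 for SOX2, with a median of 66.2, and from 7.19 to 97.06 for SOX17, with a median of 62.9. Peaks at or above percentile 90 belonged to LEFTY1, LEFTY2 and TDGF1 in the SOX2 list and to TDGF1 and SKIL in the SOX17 list. Of protein-coding genes 5.36% had such a SOX2 peak and 5.52% such a SOX17 peak. None of the 10 SOX2 peaks was centred in an annotated repeat, where 41.4% of the list was. Of the SOX17 peaks only the SKIL one was, against 43.1%.

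The ligand gene NODAL had a shared peak of modest score just upstream of the TSS of its main transcript. The SOX2 peak (chr10:70442514-70442652) was centred at -874 bp and scored 30.5, at percentile 61.6. The SOX17 peak (chr10:70442513-70442669) was centred at -882 bp and scored 19.0, at percentile 28.2. All 139 bp of the SOX2 peak fell within the SOX17 peak, and the centres were 8 bp apart, the closest agreement of position among the 3 shared regions. The region is in an intron of a longer NODAL transcript, whose TSS lies further upstream. It is shown as a shared region that held no exact SOX, FOXH1, OCT or SMAD site, and so has no capitals (chr10:70442513-70442669, minus strand, the direction of the gene).
NODAL, 874 bp upstream: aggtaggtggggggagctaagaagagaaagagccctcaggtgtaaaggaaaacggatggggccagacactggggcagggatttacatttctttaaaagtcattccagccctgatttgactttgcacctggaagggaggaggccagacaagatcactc

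A second SOX2 peak of NODAL (chr10:70451349-70451494) lay 3473 bp upstream of the TSS of the longer transcript and scored 15.17, at percentile 23.3. It held no site either. Although not centred in a repeat by the authors' annotation, its sequence gave 698419 other alignments in hg38, of which 7626 were at least 80 bp long and the most alike had 100% identity, and how reads were placed there was not tested. No SOX17 peak was nearer to it than the shared one, 8830 bp away.

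The co-receptor gene TDGF1, also known as CRIPTO, had the peaks that stood high in both lists. Cripto is a membrane-anchored protein of the EGF-CFC family that lets Nodal engage its receptors. The SOX2 peak (chr3:46574561-46574672) was centred 61 bp after the TSS and scored 218.5, 9.08 times the list median, at percentile 98.7 and rank 231. The SOX17 peak (chr3:46574499-46574617) was centred 3 bp after the TSS and scored 82.67, 3.10 times the list median, at percentile 92.7. They had 57 bp in common, 50.9% of the SOX2 and 47.9% of the SOX17 peak, and the SOX2 centre lay 58 bp further into the gene.

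The TDGF1 region held a pair of SOX sites of the same letters in opposite directions. They lay -42 and 22 bp from the SOX2 centre, within the SOX2 peak, and 16 and 80 bp from the SOX17 centre, where the second was outside the peak. The SOX2 peak thus spanned both sites and the SOX17 peak the upstream one. The upstream site is in the first, untranslated exon (50 bp in GENCODE 44) and the other in the first intron, and the region also falls in an intron of the LRRC2 gene. Both are shown from the plus strand, the direction of the gene, with the SOX sites in capitals: the exon site with 10 bases to either side (chr3:46574562-46574587) and the part of the SOX2 peak after the exon (chr3:46574584-46574672).
TDGF1 exon site: gttcaagggaACAATGacagaggtaa
TDGF1 intron: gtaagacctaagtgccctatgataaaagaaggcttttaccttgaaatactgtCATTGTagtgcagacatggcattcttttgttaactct

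TDGF1 has processed copies elsewhere in the genome. The SOX2 peak had no other alignment, and the SOX17 peak had 1, of 59 bp at 84.7% identity on chromosome X. Neither list had a peak there, and whether that stretch belongs to a processed copy was not examined. Within 50 kb of the TDGF1 TSS the SOX2 list had 3 more peaks, assigned to LRRC2-AS1 and FAM240A, the highest of them 25.2 kb downstream at percentile 94.0. The SOX17 list had no other peak within 50 kb.

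The inhibitor gene CER1 encodes Cerberus, a secreted protein that binds Nodal. Its only peak was a SOX2 promoter peak (chr9:14722844-14722971) centred 190 bp upstream of the TSS, which scored 56.33, 2.34 times the list median, at percentile 82.3. It held a FOXH1 site of the other form searched (TGTGTATT) and no SOX site. The nearest SOX17 peak was 175449 bp away. The peak is shown for that site, on the minus strand, the direction of the gene, where the site appears as its reverse complement in capitals.
CER1, 190 bp upstream: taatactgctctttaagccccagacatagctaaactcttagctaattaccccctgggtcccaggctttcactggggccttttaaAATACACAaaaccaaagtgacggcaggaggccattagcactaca

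SKIL, which encodes SnoN, a repressor of SMAD target genes that is removed when the pathway is active, had 1 SOX17 peak and no SOX2 peak. The SOX17 peak (chr3:170371702-170371811) lay 12133 bp downstream of the TSS in an intron and scored 119.67, 4.49 times the list median, at percentile 97.1 and rank 514. It was centred in a MER105 element, a DNA transposon, with 43 other alignments in hg38, of which 6 were at least 80 bp long and the most alike had 91.1% identity. A SOX site lay 2 bp from its centre, and the sequence is shown on the plus strand with that site in capitals. The nearest SOX2 peak was assigned to PRKCI, 99.1 kb from a SKIL TSS.
SKIL, 12133 bp downstream: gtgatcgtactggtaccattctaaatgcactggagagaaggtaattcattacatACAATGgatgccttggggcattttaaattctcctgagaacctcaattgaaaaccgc

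Of the receptor genes, only ACVR2A was assigned peaks, and they were distant and of low to middle score. ACVR2A and ACVR2B encode type II activin receptors and ACVR1B the type I receptor ALK4. The SOX2 peaks lay 395 kb, 375 kb and 31.8 kb upstream of ACVR2A, at percentiles 22.4, 57.2 and 39.7. The SOX17 peak lay 539 kb upstream at percentile 7.19, and none of these regions was shared. SOX sites were in the first and last of the SOX2 peaks and in the SOX17 peak. The peaks nearest to an ACVR1B TSS were 122 kb away for SOX2 and 68.5 kb away for SOX17. For ACVR2B these distances were 63.4 kb and 159 kb. The FOXH1 gene had no peak of its own, but a SOX2 peak at percentile 93.6 lay 8.67 kb from its TSS, in an intron of the neighbouring gene PPP1R16A, to which the authors assigned it. The nearest SOX17 peak was 121 kb away.

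**Figure D2:**
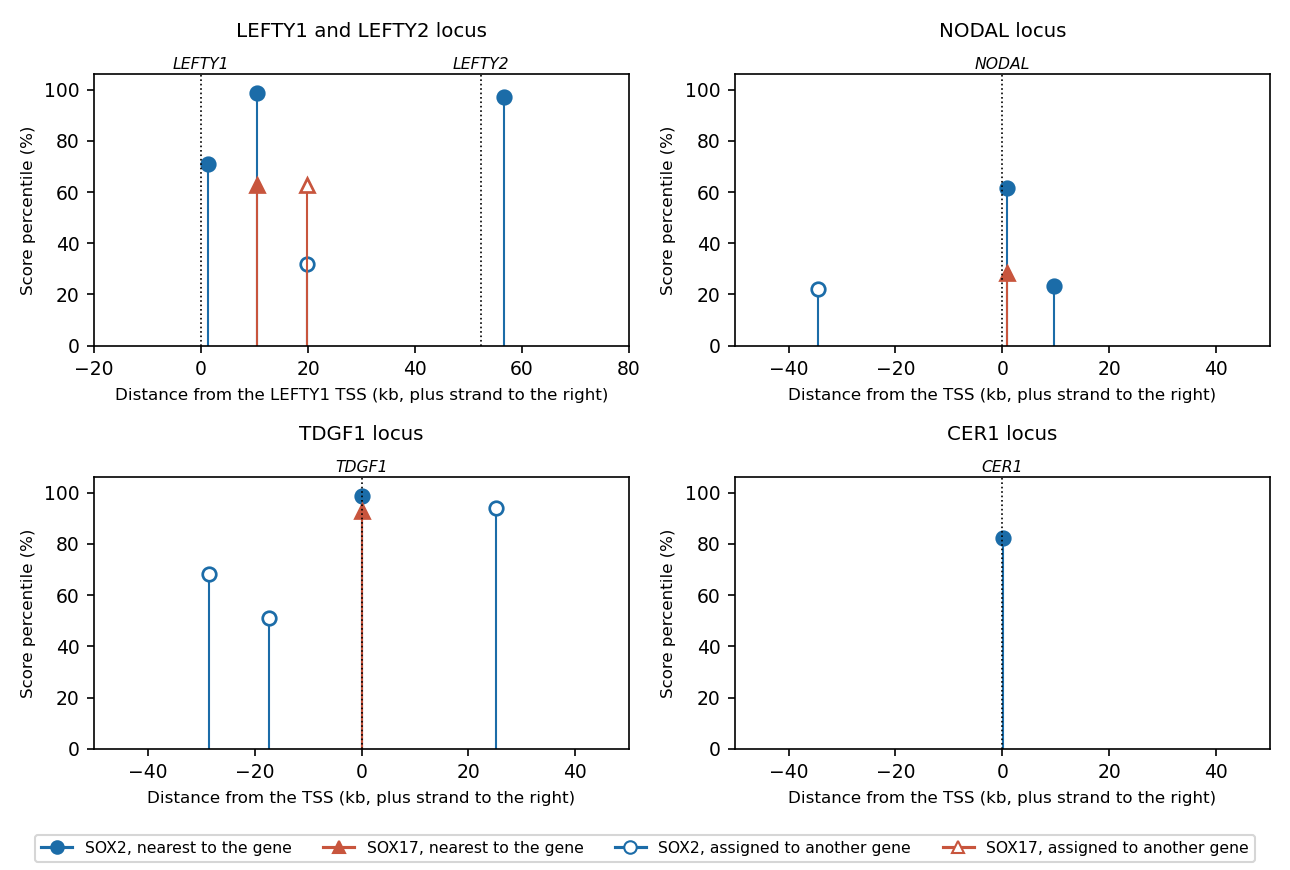
Peaks around 4 loci, by distance from the TSS (kb, plus strand to the right) and score percentile (%) within their list; filled symbols were assigned to a gene of the locus and open symbols to another gene, and dotted lines mark the TSSs. SOX2 and SOX17 peaks coincide at NODAL, TDGF1 and the LEFTY1 region at 10.4 kb, and the LEFTY2 peak at 56.7 kb and the CER1 peak are in the SOX2 list alone.

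The peaks of these genes were then compared with their lists for known binding sites, searched up to 100 bp from each centre and on either strand. The sites too were chosen with earlier results of these data known. The SOX site was CATTGT or CTTTGT, the OCT site ATGCAAAT or ATGCTAAT, the FOXH1 site TGTGGATT or TGTGTATT and the SMAD site GTCTAGAC or CAGACAG. A SOX-OCT composite was a SOX site followed by an OCT site with at most 1 mismatch, after 1 base (canonical) or directly (compressed). A SOX site was in 6 of 10 SOX2 and 4 of 5 SOX17 peaks, against 60.5% and 67.1% of the lists and 24.5% and 24.8% of windows 2000 bp to either side. At least 2 SOX sites were in 6 of 10 SOX2 peaks, 3 of them the LEFTY copies of 1 sequence, against 21.0% of the SOX2 list. No peak of the 10 genes held an OCT site or a SOX-OCT composite site. In the LEFTY copies, the 8 bases that follow the second SOX site after 1 base differed from an OCT site. They had 2 mismatches in both LEFTY1 copies and 3 in the LEFTY2 copy. A SMAD site was found for 1 peak, the SOX17 peak of ACVR2A, at -73 bp from the centre and outside the peak's bounds. In the whole lists an OCT site was in 15.1% of SOX2 and 11.5% of SOX17 peaks, and a SMAD site in 4.17% and 4.42%. The canonical composite was in 1.66% of SOX2 peaks and the compressed one in 2.77% of SOX17 peaks.

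A FOXH1 site was in 4 of 10 SOX2 peaks, those of the 3 LEFTY copies and of CER1, against 2.37% of the SOX2 list and 2.18% of the windows beside it. In the SOX17 list it was found for 1 of 5 peaks, the LEFTY1 one, against 1.88%. There it lay 54 bp from the centre and reached past the peak's bounds. A FOXH1 and a SOX site occurred together in 3 SOX2 peaks of these genes, all LEFTY copies, and in 1.41% of the list. The LEFTY copies share 1 sequence and are not separate cases: without them 1 of 7 SOX2 peaks held a FOXH1 site. The order of the LEFTY copies, a FOXH1 site and a SOX site in the opposite direction with 12 bases between, was in 3 of 17795 SOX2 peaks and 1 of 17507 SOX17 peaks, all at the LEFTY genes. This order was searched for after it had been seen there. No data on FOXH1 binding were used here, and a match of letters is a description.

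**Figure D3:**
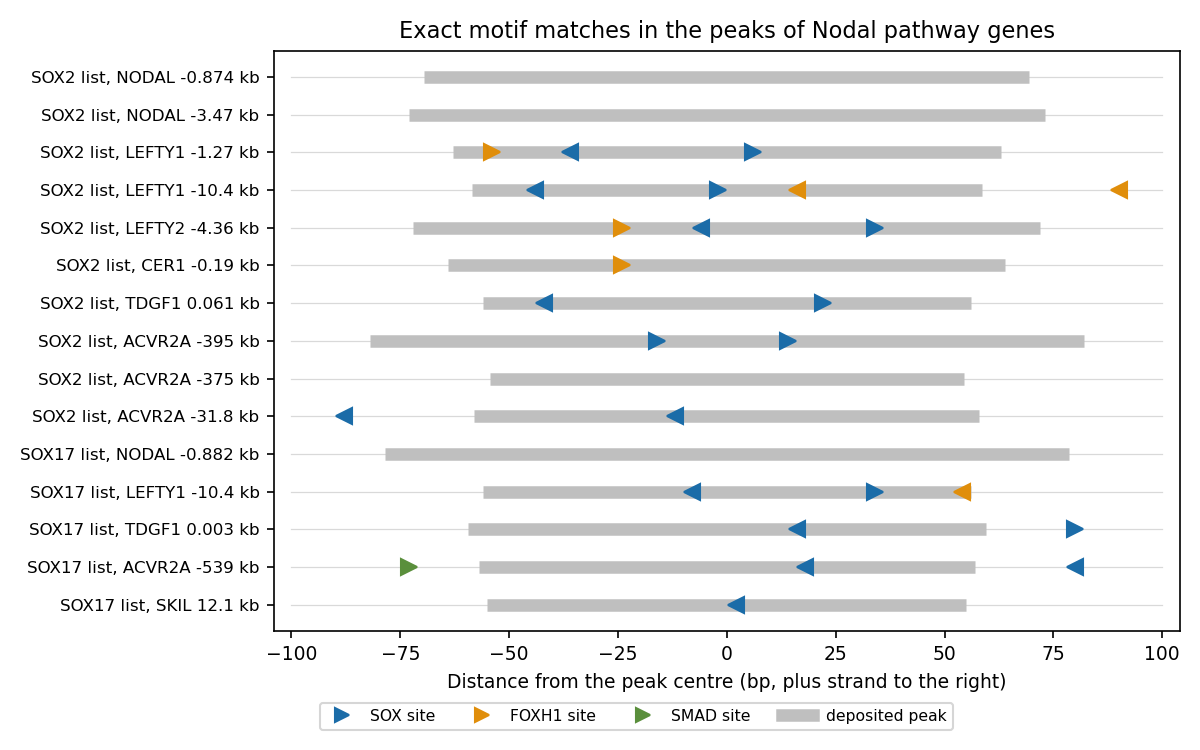
Exact matches of the searched sites by distance from the peak centre (bp, plus strand to the right) in the 15 peaks of the 10 genes, with the distance to the TSS beside each gene; grey bars are the deposited peaks and arrowheads point along the strand of the match. The 3 LEFTY peaks of the SOX2 list repeat 1 order of sites, reversed at LEFTY1 -10.4 kb, and the NODAL peaks hold no site.

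Other genes of the Nodal and activin pathway were described from 6 lists by role, 58 genes in all. Of these, 34 were nearest to a SOX2 peak and 39 to a SOX17 peak, 31 to both and 16 to neither, and 18 had a shared region. Among all protein-coding genes 32.5% were nearest to a SOX2 peak, 34.5% to a SOX17 peak and 21.6% to both, and 12.4% had a shared region; the counts by role below stand against the same shares. Their highest peaks had a median percentile of 78.4 for SOX2 and 72.9 for SOX17, against 63.1 and 61.5 over all genes with a peak. Among 9 ligand genes 5 were near peaks of each factor. The SOX2 peaks of GDF3, in its intron 1045 bp after the TSS (percentile 98.9, score 228.8), and of GDF11, at 3762 bp (97.5), were the highest, and neither was shared. Of 7 receptor and co-receptor genes 3 were near SOX2 and 4 near SOX17 peaks. ACVR1, a BMP and activin receptor gene, had a shared region 57081 bp upstream at percentiles 99.45 for SOX2 and 99.69 for SOX17.

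Of 16 inhibitor and feedback genes 10 were near a SOX2 peak and 11 near a SOX17 peak, and 6 had a shared region. SMAD7, which blocks the receptors, had its highest SOX2 peak 9281 bp upstream (percentile 99.76) and its highest SOX17 peak at 93934 bp (95.3). Of the 3 SOX2 peaks of SMAD7, 2 were shared. TGIF2, a SMAD corepressor gene, had a shared intronic region at percentiles 98.2 and 99.30. BAMBI, a decoy receptor gene, had a SOX17 peak at percentile 98.3 and a SOX2 promoter peak at 44.5. PPM1A, a SMAD phosphatase gene, had a shared SOX17 peak at percentile 96.6. Of 9 transducer and partner genes 4 were near SOX2 and 6 near SOX17 peaks, none at or above percentile 95, and all 3 genes of ligand-processing proteases were near both.

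Of 15 target genes 9 were near SOX2 and 10 near SOX17 peaks, 4 with a shared region. OTX2 had a shared promoter region, at percentile 99.81 in the SOX2 list and 92.5 in the SOX17 list. WNT3 had a shared intronic region, at percentile 98.8 in the SOX2 list and 58.2 in the SOX17 list. EOMES had a shared SOX2 peak at percentile 96.5 and NANOG a SOX17 peak at 99.90 that was not shared. CXCR4 had a SOX17 peak at percentile 96.7, 61060 bp upstream, and 1 of its 6 SOX17 peaks was shared. NANOG and GDF3 on the short arm of 12, and TGIF2 on chromosome 20, are in the regions of higher scores named above, and the part of that in their percentiles was not tested. The genes of these lists were chosen with results of these data known.

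**Figure D4:**
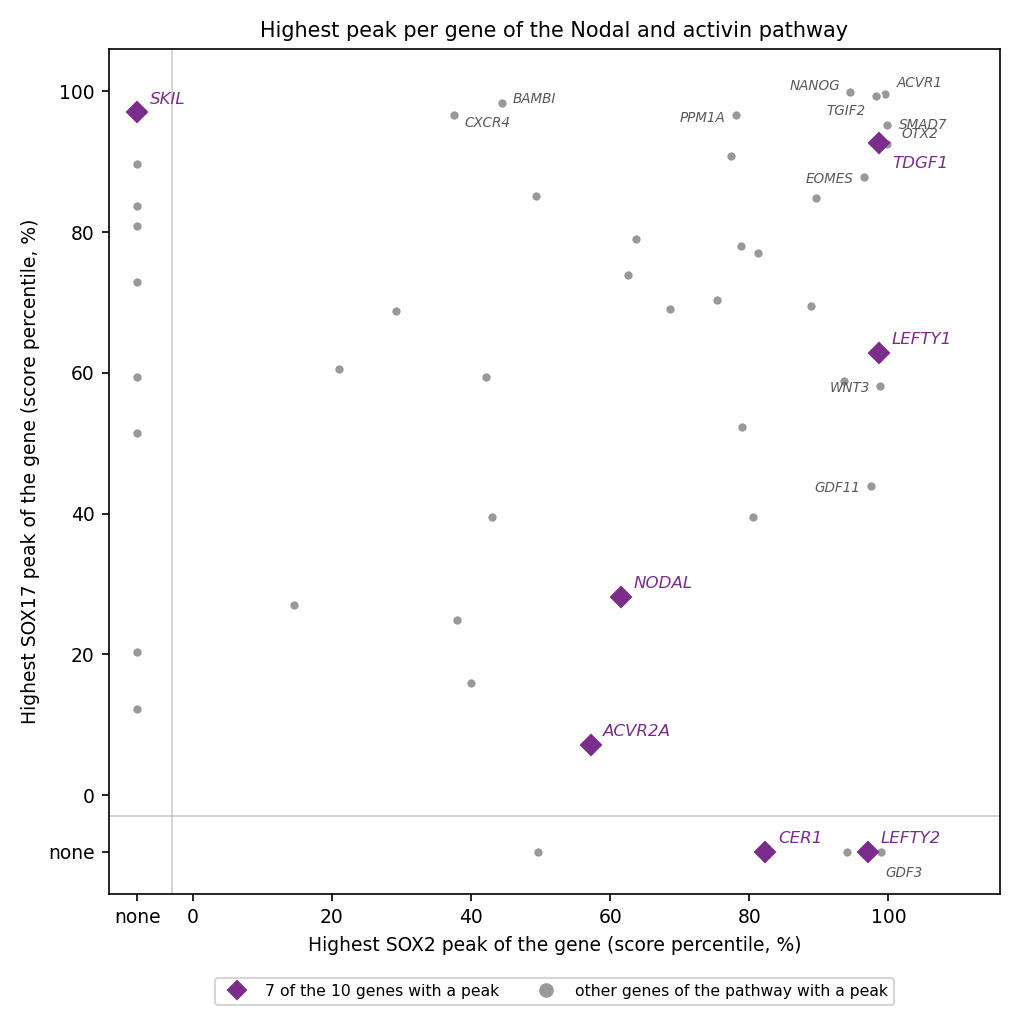
Highest SOX2 peak against highest SOX17 peak of each gene, as score percentile (%) within its list, with "none" for genes with no peak in that list; diamonds are 7 of the 10 genes (the other 3 have no peak) and grey circles the other genes of the pathway with a peak. TDGF1 lies in the upper right corner beside OTX2 and SMAD7, and LEFTY2 and CER1 lie in the row with no SOX17 peak beside GDF3.

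Genes of like pattern were those with the same numbers of SOX2, SOX17 and shared peaks and the nearest best percentiles. As this uses 2 lists only, it is coarse. TDGF1 was closest to POLI (percentiles 98.2 and 92.7) and MIR4488 among 854 genes with the same counts. NODAL was closest to TSPAN8 (59.6 and 30.2) and SPATA22 among 347. LEFTY2 was closest to SNURF and SPAG1, and CER1 to BTF3 and CRYZL1, among 2416 genes with 1 SOX2 peak alone. ACVR2A was closest to RPS6KA2 and SNORD162 among 145, and SKIL to LOC102724153 and HABP4 among 2769.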

How the data were processed

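The authors deposited 1 annotated list of merged peaks per factor. Each peak has a score whose scale is not stated, per the file headers, and which was used only within its list. Positions and distances are in bp on hg38. Reads were single-end, 75 bp long and planned at 25 M per sample, per the series' design text. The mapper was CLC Genomics Workbench 12 and peaks came from HOMER, per the submitters' processing notes and the design text. Not given in the sources used here are HOMER's version and settings and how input entered the calls. All peak names end in 3. If that marks peaks called in all replicates, sites called in fewer would be missing. Each list holds 2 blank lines, whose content is not analysed here. A comparison of ChIP with input was planned but could not be run without values per library.

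Peaks were assigned by the deposited nearest gene, and TDGF1 was matched to RefSeq by its gene number. Deposited distances were checked against GENCODE 44 on hg38, where 97.1% of peaks in either list matched a TSS of their gene to within 1000 bp. Peaks of the lists counted as shared from 1 bp of overlap. Percentiles are average ranks. Sequences came from hg38, and copies were sought with blastn 2.17.0. Other steps used Python 3.11.15, pandas 2.3.3, pysam 0.24.0 and Biopython 1.88. The overlap, percentile and site search functions were tested on simulated data, and the remaining steps were not. No statistical test was made. The 10 genes, the other pathway genes and the searched sites were chosen with earlier results of these data known. All 10 genes were named, with other pathway genes at or above percentile 95 in either list and the 2 genes most like each. Sequences were printed for shared peaks, for highest peaks at or above percentile 90 and for peaks with a FOXH1 or composite site. The LEFTY1 sequences and the genes most like LEFTY1 are not reported here.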

Additional observations from a re-analysis of the deposited data

How the results depend on the processing

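Of 22 alternative values 19 stayed within 1.5 times the reported count or, for the median percentiles (66.9 for SOX2 and 63.9 for SOX17 when ranked without the short arm of chromosome 12 and chromosome 20), within the spread of the peaks. Among peaks above the list median, 3 genes in place of 5 were near a SOX17 peak, with 3 peaks, because ACVR2A and NODAL scored lower. Without the 3 LEFTY peaks, an alternative added after seeing the data, 1 of 7 SOX2 peaks held a FOXH1 site. Shared regions fell to 2 when an overlap of at least 50% of both peaks was required, which TDGF1 missed, and to 2 among peaks above the median of both lists, which NODAL missed. Every peak within 50 kb of a TSS of the 10 genes, whatever its assigned gene, gave 14 SOX2 and 5 SOX17 peaks. No paired analysis was possible because the lists hold merged peaks with no column per library, and no replicate could be left out for the same reason. Depth is unknown, so weak sites cannot be told from absent ones.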

Other observations

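Among the other pathway genes, 2 of 63 SOX2 peaks (3.17%) and 1 of 81 SOX17 peaks (1.23%) held a FOXH1 site, near the shares of the whole lists, 2.37% and 1.88%. PMEPA1, a gene whose product restrains TGF-beta signalling, had such a peak in both lists at its promoter, centred 12 bp upstream of the TSS for SOX2 (percentile 78.8) and 54 bp upstream for SOX17 (percentile 78.1), and these peaks also held a SOX site. PMEPA1 is on chromosome 20, where scores ran higher, and the part of that in its percentiles was not tested. The other was a SOX2 peak of the protease gene PCSK5, 108938 bp downstream at percentile 49.3. The canonical SOX-OCT composite was in 3 of the 63 SOX2 peaks, against 1.66% of the list, and the compressed one in 1 of the 81 SOX17 peaks, against 2.77%.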
